A study of Oryctolagus cuniculus with 4 samples.

Results

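The genes examined were those that cut, protect or cross-link the extracellular matrix of rabbit supraspinatus muscle. They were chosen by name, with earlier results of these data known. The names were those of matrix metalloproteinases (MMP), ADAM and ADAMTS proteases, tissue inhibitors of metalloproteinases (TIMP), serpins and lysyl oxidases (LOX). Without MMP12, which was not analysed here, 65 of the 21139 genes in the count table carried such a name. Of these 65 genes, 42 had at least 1 molecule counted in at least 1 section. Matrix metalloproteinases degrade collagens and other matrix proteins, ADAMs mostly shed proteins from cell surfaces, and ADAMTS proteases cut proteoglycans or process procollagen. TIMPs block metalloproteinases by binding their catalytic site, most serpins block serine proteases, and lysyl oxidases cross-link collagen and elastin. In muscle that loses its tendon attachment, fibrous and fatty tissue are known to accumulate between the fibers, and both the building and the breakdown of collagen take part in this remodeling.

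The muscles came from skeletally mature female New Zealand White rabbits used as a model of a rotator cuff tear, in which the tendon of the supraspinatus is cut (tenotomy). Each of 4 conditions had a single section, namely fresh healthy muscle, healthy muscle kept frozen for 6 years, and muscle taken 2 weeks or 16 weeks after tenotomy and frozen for the same 6 years. In their sample names, the stored healthy and the 16-week section carry the same animal number with the letters R and L, and each of the other sections carries a number of its own. The samples were snap frozen and came from the muscle belly, and storage, animal and condition cannot be told apart for the fresh section.

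RNA was captured on Visium slides, whose barcoded spots bind RNA near its 3′ end and give each captured molecule a unique molecular identifier (UMI). A spot is a small area of tissue that can hold several cells of different types, so fewer cells of a type and less RNA per cell cannot be told apart. The 4 sections held 854 to 2440 spots and 4079313 to 12536450 UMIs, and mitochondrial genes took 33.8% to 49.3% of them, with the lower shares in both tenotomy sections. Levels below are UMIs per 10000 UMIs of all genes, and intervals are exact 95% intervals that cover counting error only. With 1 section per condition no test between conditions was possible, no p-value was computed, and every difference is one between 2 single sections. A gene was called 2-fold higher or lower among genes with at least 20 UMIs over both sides of a comparison. Of the marker lists, 4 of 8 skeletal muscle genes had a feature and their summed level was 189 to 549.7 per 10000 in the 4 sections, the highest of the cell type lists in every section.

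The genes examined had 3678 UMIs in fresh healthy, 12104 in stored healthy, 5947 in 2-week and 10822 in 16-week muscle. Per 10000 UMIs of all genes these sums were 5.24, 9.66, 14.6 and 22.8 in the same order. The summed level was thus lowest in fresh healthy muscle and highest 16 weeks after tenotomy. The counts were concentrated in few genes: 11 had at least 200 UMIs over the 4 sections, 10 had at least 20 but under 200, 21 had 1 to 19, and 23 had none. Among all genes of the table, 45.8% had no UMI and 15.5% had at least 200, against 35.4% and 16.9% of the genes examined.

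The 23 genes without a UMI were MMP3, MMP7, MMP8, MMP10, MMP20 and MMP26 among the metalloproteinases, ADAM7, ADAM11, ADAM28, ADAM30 and ADAM33 among the ADAMs, ADAMTS15, and 11 of the 17 serpins. A count of 0 allows a level of up to 0.00239 per 10000 UMIs in the stored healthy section and up to 0.00735 in the 2-week section, which had the fewest UMIs (3 counts over the section). MMP13, a collagenase, had 0 UMIs in 3 sections and 4 in the 16-week section, and MMP1, the interstitial collagenase, had 1 UMI each in stored healthy and 16-week muscle and none elsewhere. Reads near the 3′ end of a transcript are counted only where the annotation reaches them, so a low count need not mean a low level. SPARC, a matrix protein that fibroblasts make in large amounts, had 1 to 8 UMIs per section. TIMP2, MMP9, MMP14, SERPINH1, LOXL1 and LOXL2 were not analysed here, as the count table has no gene under these names. The sums, shares and ratios of families below are therefore without them.

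**Figure D1:**
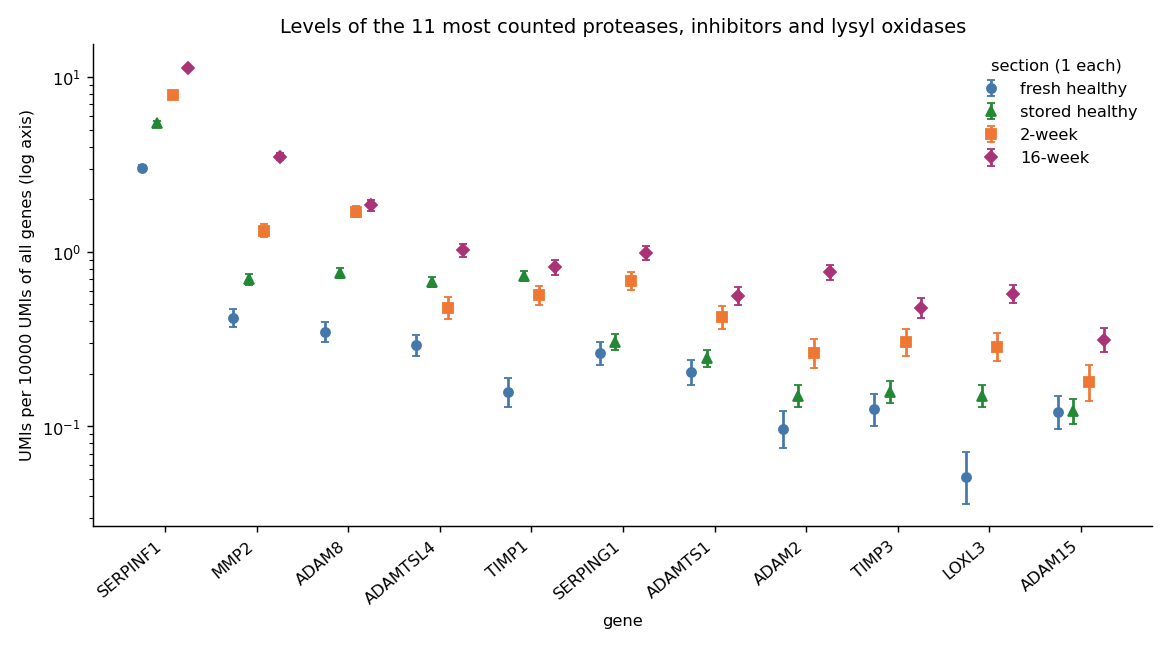
Levels of the 11 genes with at least 200 UMIs, as UMIs per 10000 UMIs of all genes on a log axis. Each point is 1 section and bars are exact Poisson 95% intervals. The 16-week points of MMP2 (3.52) and ADAM2 (0.763) stand above those of the other sections, while TIMP1 lies between 0.564 and 0.818 in the 3 stored sections and at 0.158 in the fresh one.

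MMP2, gelatinase A, which cuts denatured collagen and basement membrane collagen, accounted for 91.9% to 96.7% of the UMIs of the metalloproteinases examined in each section. It had 295 UMIs in fresh healthy, 871 in stored healthy, 540 in 2-week and 1668 in 16-week muscle. Its level was 0.420 per 10000 UMIs in fresh healthy muscle (0.374 to 0.471), 0.695 in stored healthy muscle (0.649 to 0.742), 1.32 at 2 weeks (1.21 to 1.44) and 3.52 at 16 weeks (3.35 to 3.69). The 4 intervals did not overlap, and the order ran from fresh healthy over stored healthy and 2 weeks to 16 weeks. MMP2 was seen in 11.7% of fresh healthy, 23.2% of stored healthy, 37.9% of 2-week and 39.2% of 16-week spots. These shares depend on depth, which was lowest at 16 weeks with a median of 2090 UMIs per spot. Thinned to 1000 UMIs per spot, the shares were 3.92%, 5.88%, 11.5% and 24.5%, so at equal depth the 16-week section stood apart from the 2-week section. In 16-week muscle, 81 spots with 5 or more MMP2 UMIs held 40.8% of the MMP2 counts, against 18 spots and 17.2% in stored healthy muscle.

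The other metalloproteinases were rare. MMP15, a membrane-bound type, had 16, 44, 14 and 24 UMIs in the fresh healthy, stored healthy, 2-week and 16-week sections, and MMP16, also membrane-bound, had 4, 11, 6 and 17. MMP28 had 4, 1, 0 and 11 UMIs in the same order. For MMP15 the intervals of all 4 sections overlapped, and a difference was not detectable at this depth.

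ADAM8, a protease known from leukocytes and activated macrophages, had 56.9% to 74.7% of the ADAM counts. Its UMIs were 244 in fresh healthy, 945 in stored healthy, 693 in 2-week and 875 in 16-week muscle, or 0.348, 0.754, 1.70 and 1.84 per 10000. Both tenotomy sections lay above both healthy sections, and the 2-week and 16-week intervals overlapped (1.57 to 1.83 and 1.72 to 1.97). At 2 weeks the counts were uneven: 22 of 854 spots had 5 or more UMIs and together held 259 of the 693, and 1 spot had 30. In the stored healthy section 2 spots reached 5 UMIs and held 11 of the 945. At 16 weeks 18 spots did, and they held 101 of the 875.

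ADAM2, known mainly as a sperm surface protein, had 68, 188, 107 and 362 UMIs in the fresh healthy, stored healthy, 2-week and 16-week sections. Its level of 0.763 per 10000 at 16 weeks (0.687 to 0.846) lay above 0.262 at 2 weeks (0.215 to 0.317), 0.150 in stored healthy and 0.0969 in fresh healthy muscle. The counts were spread thinly, with no spot above 3 UMIs in any section. ADAM15, an adhesion-related member, had 85, 153, 73 and 149 UMIs, or 0.121, 0.122, 0.179 and 0.314 per 10000. Both healthy sections were alike within counting error for ADAM15, and the 16-week section was higher. ADAM10, the main sheddase of Notch and many other surface proteins, had 16, 38, 23 and 30 UMIs, and ADAM23, a catalytically inactive adhesion protein, had 16, 14, 27 and 5. The 2-week section thus had the most ADAM23 molecules, although it had the fewest spots.

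Among the 15 ADAMTS and ADAMTS-like genes, 14 had UMIs and 2 had at least 200. ADAMTSL4, a protease-like protein without catalytic domain that binds fibrillin microfibrils, had 205 UMIs in fresh healthy, 842 in stored healthy, 195 in 2-week and 484 in 16-week muscle. Its level was 0.292, 0.672, 0.478 and 1.02 per 10000 in that order, so it was lower at 2 weeks and higher at 16 weeks than in stored healthy muscle, although the latter direction turned with the median of all genes set to 0. Relative to non-mitochondrial UMIs it was 0.576, 1.32, 0.722 and 1.56, and the order was kept. ADAMTS1, which cuts versican and aggrecan, had 144, 308, 172 and 265 UMIs, or 0.205, 0.246, 0.422 and 0.559 per 10000. ADAMTS5, the major aggrecanase, had 4, 25, 23 and 74 UMIs, and the 16-week level of 0.156 per 10000 (0.123 to 0.196) lay above 0.0564 at 2 weeks (0.0357 to 0.0846). ADAMTS19 had 20, 12, 5 and 6 UMIs, with most in fresh healthy muscle.

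TIMP1, a broad inhibitor that is induced in injured tissue, had 111 UMIs in fresh healthy, 916 in stored healthy, 230 in 2-week and 388 in 16-week muscle. Per 10000 UMIs these were 0.158 (0.130 to 0.190), 0.731 (0.684 to 0.780), 0.564 (0.493 to 0.642) and 0.818 (0.739 to 0.904). Unlike for MMP2, the stored healthy section was close to the tenotomy sections and far above the fresh one. Relative to non-mitochondrial UMIs, TIMP1 was at 1.44 in stored healthy muscle, above 0.852 at 2 weeks and 1.25 at 16 weeks, so the order of stored healthy and 16 weeks turned with the scaling. The stored healthy counts were focal: 24 of 2440 spots had 5 or more TIMP1 UMIs and held 26.1% of them, with 38 in 1 spot. Those 24 spots also had 136 MMP2 UMIs and 11 of ADAM8. Of 3 macrophage markers examined there, SPP1 (osteopontin) had 44 UMIs, or 1.90 per 10000 against 0.0618 in the other spots, CD74 had 9, or 0.388 against 0.296, and GPNMB had 0, against 0.463 per 10000 in the other spots. The other inhibitors of this family were TIMP3, which stays bound to the matrix and also blocks ADAMs, and TIMP4. TIMP3 had 88, 198, 124 and 227 UMIs, or 0.125, 0.158, 0.304 and 0.479 per 10000, and was highest at 16 weeks. TIMP4 had 3, 6, 2 and 9 UMIs.

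SERPINF1, or pigment epithelium-derived factor, a secreted serpin that inhibits no protease and is known to restrain vessel growth, had 17578 of the 32551 UMIs of all genes examined. It had 2115 UMIs in fresh healthy, 6847 in stored healthy, 3250 in 2-week and 5366 in 16-week muscle, or 3.01, 5.46, 7.97 and 11.3 per 10000. The intervals did not overlap and the order was that of MMP2. It was in 55.9% of fresh healthy, 81.4% of stored healthy, 89.6% of 2-week and 82.9% of 16-week spots, and in 26.0%, 38.3%, 49.9% and 67.3% of the spots thinned to 1000 UMIs. SERPING1, the C1 inhibitor of the complement system, had 184, 382, 278 and 468 UMIs. Its level was 0.262 in fresh and 0.305 in stored healthy muscle, with overlapping intervals, 0.681 at 2 weeks and 0.987 at 16 weeks. SERPINE2 (protease nexin-1, a thrombin inhibitor) had 4, 25, 18 and 13 UMIs and SERPINI1 (neuroserpin, an inhibitor of tissue plasminogen activator) had 3, 28, 17 and 34.

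Of the lysyl oxidases, LOXL3 had 36 UMIs in fresh healthy, 187 in stored healthy, 117 in 2-week and 274 in 16-week muscle. Its level was 0.0513, 0.149, 0.287 and 0.578 per 10000, and no intervals overlapped. LOX itself had 4, 30, 16 and 51 UMIs, or 0.0057, 0.0239, 0.0392 and 0.108 per 10000, and among the stored sections the intervals of stored healthy and 2-week muscle overlapped. LOXL4 had 0, 1, 1 and 1 UMIs.

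The comparison of both tenotomy sections with stored healthy muscle asks which of these genes differ early and late after loss of the tendon. Both comparisons share the stored healthy section and are not independent. In either of them most genes tested had a higher share of the UMIs (4805 of 5686 at 2 weeks and 5303 of 6025 at 16 weeks). The median log2 ratio of all genes tested was 0.63 at 2 weeks and 0.93 at 16 weeks, while mitochondrial genes took a smaller share. Counts are therefore read beside these background values.

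At 2 weeks against stored healthy, 5 of 18 genes tested were at least 2-fold higher, against 27.6% of all genes. They were ADAM8 (log2 ratio 1.17, interval 1.03 to 1.32), SERPING1 (1.16, 0.93 to 1.39), ADAMTS5 (1.50, 0.62 to 2.38), ADAM23 (2.54, 1.59 to 3.61) and SERPINE2 (1.16, 0.19 to 2.08). A count of 5 of 18 is at the level of the background. None was 2-fold lower, against 2.11% of all genes. ADAMTSL4 and TIMP1 were the only 2 of the 18 with a ratio below 0, at -0.49 (-0.72 to -0.26) and -0.37 (-0.59 to -0.16). MMP2 was at 0.93 (0.77 to 1.09) and LOXL3 at 0.95 (0.60 to 1.28). With the median of all genes set to 0, ADAM23 alone was 2-fold higher, ADAMTSL4 (-1.12) and, just past the limit, TIMP1 were 2-fold lower, and SERPINF1 (0.54 before), ADAM15 (0.56 before) and MMP15 (0.00 before) came to lie below 0.

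At 16 weeks against stored healthy, 14 of 18 were at least 2-fold higher, against 46.9% of all genes, and none was 2-fold lower, against 2.36%. The median log2 ratio of the 18 was 1.48. The largest ratios were those of ADAMTS5 (2.95, 2.30 to 3.68), ADAM2 (2.35, 2.09 to 2.61), MMP2 (2.34, 2.22 to 2.46), LOX (2.16, 1.49 to 2.87), MMP16 (2.01, 0.85 to 3.27) and LOXL3 (1.95, 1.68 to 2.23). These 6 were also past 2-fold with the median of all genes set to 0. The others past 2-fold were SERPING1 (1.69), SERPINI1 (1.68), TIMP3 (1.60), ADAM15 (1.36), ADAM8 (1.29), ADAMTS1 (1.19), ADAM10 (1.07) and SERPINF1 (1.05). TIMP1 was at 0.16 (-0.01 to 0.34) and ADAMTSL4 at 0.60 (0.44 to 0.77). Both were below the median of all genes and came to lie below 0 when it was set to 0, as did MMP15 (0.54 before) and SERPINE2 (0.48 before), and TIMP1 was below 0 also without mitochondrial genes. The summed level of the macrophage markers, of which 11 of 11 had a feature and none was at 0, was 1.73 per 10000 in stored healthy muscle, 1.70 at 2 weeks and 3.90 at 16 weeks. The connective tissue markers (7 of 10 with a feature) were at 43.3, 134 and 84.8, and the adipose markers (4 of 7, with LEP at 0) at 2.97, 6.26 and 13.4. The part of these cell types in the differences was not tested.

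**Figure D2:**
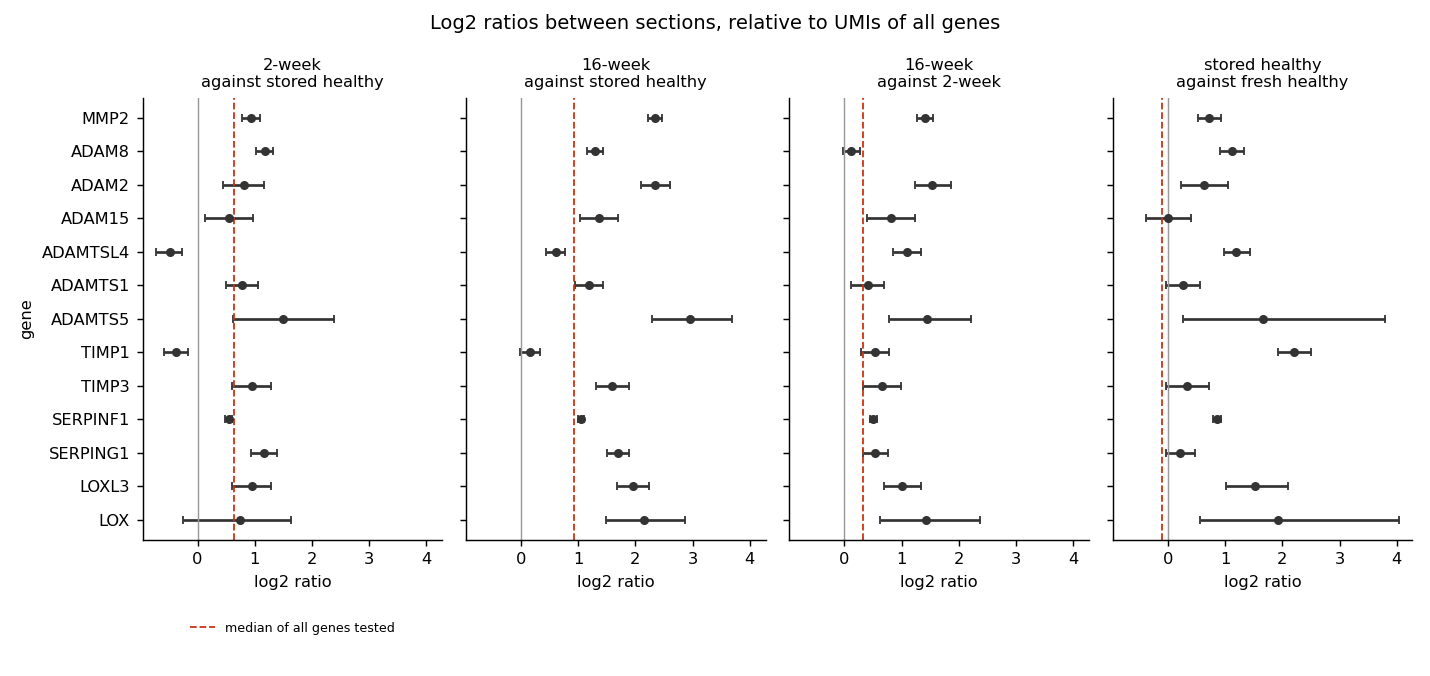
Log2 ratios of 13 genes in 4 comparisons of single sections, with exact conditional 95% intervals. The grey line marks 0 and the red dashed line the median of all genes tested. In both comparisons of tenotomy with stored healthy muscle TIMP1 lies to the left of the red line, and at 16 weeks MMP2 lies 1.40 to its right.

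Between 16 and 2 weeks, 7 of 19 genes were at least 2-fold higher at 16 weeks, against 18.1% of all genes, and 1 was 2-fold lower, against 5.26%. The 7 were ADAM2 (1.54, 1.23 to 1.87), ADAMTS5 (1.45, 0.78 to 2.21), LOX (1.42, 0.62 to 2.36), MMP2 (1.41, 1.27 to 1.55), MMP16 (1.21, -0.13 to 2.92), ADAMTSL4 (1.09, 0.85 to 1.34) and LOXL3 (1.01, 0.69 to 1.33), and the lower one was ADAM23 (-2.54, -4.38 to -1.25). LOX (51 against 16 UMIs) and ADAM23 (5 against 27) reached the count minimum only through the section where they were higher. The median of all genes here was 0.32. Of 14 genes for matrix substrates and collagen assembly, FBN1, PCOLCE2 and PLOD2 were at least 2-fold higher at 16 than at 2 weeks, the fibrillar collagen genes COL1A1, COL1A2 and COL3A1 were at least 2-fold lower, and the median log2 ratio was 0.03. COL1A1 had 128, 1129, 2146 and 671 UMIs in the fresh healthy, stored healthy, 2-week and 16-week sections, or 0.182, 0.901, 5.26 and 1.41 per 10000. COL1A1 was thus highest at 2 weeks, whereas MMP2 was highest at 16 weeks. Per 1000 UMIs of these 3 collagen genes, a scale that does not depend on the total of a section, MMP2 had 64.0 UMIs in fresh healthy (56.9 to 71.8), 26.7 in stored healthy (24.9 to 28.5), 12.6 in 2-week (11.6 to 13.7) and 81.9 in 16-week muscle (78.0 to 85.9). On the same scale TIMP1 had 24.1, 28.0, 5.38 and 19.1, and SERPINF1 had 459, 210.0, 76.0 and 264. For each of the 11 most counted genes the 2-week value was the lowest on this scale. The 3 collagen genes had 4606 UMIs in fresh healthy, 32677 in stored healthy, 42750 in 2-week and 20364 in 16-week muscle. As collagen counts were highest at 2 weeks, the low values there need not mean fewer molecules of the 11 genes. Per 10000 UMIs of all genes, TIMP1 (0.564 against 0.731) and ADAMTSL4 (0.478 against 0.672) were also lower at 2 weeks than in stored healthy muscle. The rest of the 11 were higher on that scale.

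Stored and fresh healthy muscle differ in storage and in animal, which cannot be told apart. By its name, the stored healthy section also shares its animal number with a tenotomy section, unlike the fresh section. Whether tenotomy in the same animal had a part in the stored healthy values was not tested. The comparison thus gives the size of differences between the sections named healthy, not clearly of differences without tenotomy. In the stored section 8 of 19 genes were at least 2-fold higher, against 9.36% of all genes, and 2 were 2-fold lower, against 11% of all genes. TIMP1 was 4.60-fold higher (log2 ratio 2.20, 1.92 to 2.51). The other 7 were SERPINI1 (2.19), LOX (1.92), ADAMTS5 (1.67), SERPINE2 (1.67), LOXL3 (1.52), ADAM8 (1.11) and ADAMTSL4 (0.672 against 0.292 per 10000), and those lower were ADAM23 (-1.02) and ADAMTS19 (-1.55). The fresh section had only 3 or 4 UMIs of SERPINI1, LOX, ADAMTS5 and SERPINE2, so these 4 ratios have wide intervals. Their 25 to 30 UMIs in the stored section alone took these 4 past the count minimum. The count of 8 thus rests in part on that minimum, which was the same for all genes. With a minimum of 100 UMIs, 4 of 11 genes were 2-fold higher, against 7.29% of all genes. At the minimum used elsewhere the median of all genes was -0.11, and MMP2 was at 0.72 (0.53 to 0.92). All 10 macrophage markers that passed the count minimum, and 6 of 7 connective tissue markers, were also at least 2-fold higher in the stored section. The summed macrophage level was 0.385 in fresh against 1.73 in stored muscle and the connective tissue level 14.0 against 43.3, and their part in the higher levels of TIMP1 and the others was not tested.

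Of 13 other matrix proteases and regulators with a feature, 10 passed the count minimum, and 7 of them were 2-fold higher at 16 weeks and 4 at 2 weeks against stored healthy muscle, with none lower, beside 46.9% and 27.6% of all genes higher. Cathepsin K, a lysosomal collagenase, had a level of 0.373, 1.41, 2.61 and 5.03 per 10000 in the fresh healthy, stored healthy, 2-week and 16-week sections, and cathepsin B 1.09, 1.64, 2.35 and 5.36. Of 15 genes for matrix substrates and collagen assembly, 14 passed the minimum, and 8 were 2-fold higher at 2 weeks and 9 at 16 weeks, beside the same shares of all genes. Cathepsins B and K were thus highest at 16 weeks, like MMP2.

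The balance of inhibitor to protease counts was described as ratios of sums within a section, which do not depend on the total. TIMP2, MMP9 and MMP14 are not in these sums. ADAM23 and ADAMTSL4, described above as inactive or without catalytic domain, are counted with the proteases. ADAMTSL4 had 48.3% to 69.8% of the ADAMTS counts. TIMP to MMP counts stood at 0.629 in fresh healthy muscle (0.525 to 0.753), 1.21 in stored healthy muscle (1.11 to 1.32), 0.636 at 2 weeks (0.555 to 0.727) and 0.362 at 16 weeks (0.330 to 0.397). The 16-week ratio was the lowest and the stored healthy ratio the highest, and those of the fresh and the 2-week section overlapped. The ratio rests on MMP2 and TIMP1: without the most counted member of each family it was 3.50, 3.58, 6.30 and 4.14, with the 16-week section no longer lowest. TIMP counts against those of ADAMs and ADAMTS were 0.250, 0.439, 0.267 and 0.276, with stored healthy muscle highest. Without the most counted members they were 0.253, 0.266, 0.284 and 0.261, with overlapping intervals, so the stored healthy value rests on those members too. Serpin counts against those of all 3 protease families were 2.04, 2.09, 1.88 and 1.48. As most serpins block serine proteases and not metalloproteinases, this ratio compares counts only and is no balance of inhibitors with their targets. Most of these serpin counts were SERPINF1, which inhibits no protease. Without the most counted members the ratios were 0.495, 0.530, 0.679 and 0.539, and the 16-week section was no longer lowest.

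For MMP2 and TIMP1 alone, there were 2.66 MMP2 UMIs for each TIMP1 UMI in fresh healthy muscle (2.13 to 3.34), 0.951 in stored healthy muscle (0.866 to 1.04), 2.35 at 2 weeks (2.01 to 2.75) and 4.30 at 16 weeks (3.85 to 4.81). Leaving out spots with 5 or more TIMP1 UMIs, a choice made after seeing the data, gave 2.66, 1.09, 2.53 and 4.44. For MMP2 against TIMP3 the ratios were 3.35, 4.40, 4.35 and 7.35, and the first 3 had overlapping intervals. The 16-week section was highest against either inhibitor, whereas the low value of stored healthy muscle was seen with TIMP1 and not with TIMP3.

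**Figure D3:**
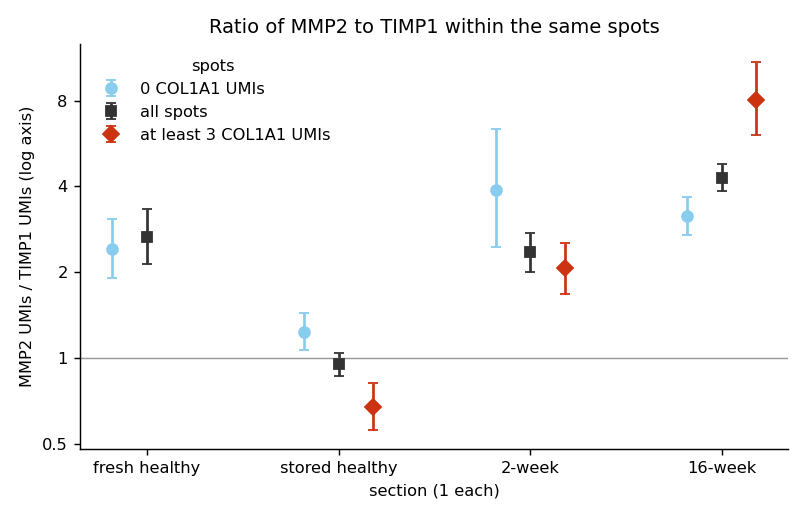
MMP2 UMIs for each TIMP1 UMI on a log axis, over all spots, spots with 0 COL1A1 UMIs and spots with at least 3, with exact 95% intervals. In the 16-week section the ratio is 3.15 in spots without COL1A1 and 8.06 in spots rich in it, and in the stored healthy section 1.24 and 0.675 (the fresh section had too few rich spots).

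The relation to COL1A1, a chain of collagen I, was described across the spots of each section. Spots of a section share a library and neighbors and are not replicates. COL1A1 had at least 1 UMI in 105 fresh healthy, 664 stored healthy, 565 2-week and 382 16-week spots, and at least 3 UMIs in 5, 100, 245 and 66. Spots with COL1A1 also had more markers of several cell types. In spots with 3 to 4 COL1A1 UMIs at 16 weeks, macrophage markers were at 16.2 per 10000 against 2.75 in spots with none, vessel wall markers (6 of 7 with a feature) at 20.4 against 5.78, and skeletal muscle markers at 133 against 251. In the 35 stored healthy spots with 5 or more COL1A1 UMIs, macrophage markers were at 19.1 against 1.02, and markers of regenerating fibers (4 of 6 with a feature) at 4.94 against 0.582. Connective tissue markers were at 191 against 28.2 there, but skeletal muscle markers were also higher, at 265 against 180. At 2 weeks skeletal muscle markers were at 546 without COL1A1, 581 with 3 to 4 UMIs and 482 with 5 or more. Spots rich in COL1A1 thus still held much muscle RNA in these sections. Their part in the values below was not tested.

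Comparing spots with at least 1 COL1A1 UMI against spots with 0, 4 of 12 genes were at least 2-fold higher in the fresh healthy section (8.42% of all genes), 6 of 17 in the stored healthy section (11% of all genes), 1 of 14 in the 2-week section (9.02% of all genes) and 7 of 16 in the 16-week section (12.6% of all genes). The share was above that of all genes in 3 sections and near it at 2 weeks, where spots thinned to 1000 UMIs gave 5 of 10, against 11.3% of all genes. MMP2, SERPING1 and LOXL3 were among them in the fresh, stored healthy and 16-week sections, and TIMP1 in the 3 stored sections. With at least 3 COL1A1 UMIs, it was 11 of 14 in the stored healthy section (31.4% of all genes), 5 of 11 at 2 weeks (13.6% of all genes) and 10 of 16 at 16 weeks (39.7% of all genes). MMP2, TIMP1, SERPING1 and LOXL3 were called in all 3 of these sections. Some counted genes had few UMIs in the rich spots and log2 intervals that included 0. They were SERPINI1 (3 UMIs) and ADAMTS5 (6 UMIs) at 16 weeks and ADAM10 (5 UMIs) in stored healthy muscle. At the limit of 1 UMI this held for LOXL3 in fresh healthy muscle (6 UMIs) and SERPINI1 at 16 weeks (13 UMIs).

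MMP2 was higher in spots with COL1A1. At 16 weeks its level was 1.95 per 10000 in spots without COL1A1 (1.81 to 2.10), 5.59 with 1 to 2 COL1A1 UMIs (5.12 to 6.09) and 26.5 with 3 to 4 (23.5 to 29.7). Over all 66 spots with at least 3 it was 27.4, or 14.1 times that in spots without. In the stored healthy section it was 0.473 without and 2.55 with at least 3 COL1A1 UMIs (5.39-fold), and at 2 weeks 0.860 and 2.08 (2.41-fold). Even in spots without COL1A1, MMP2 was higher at 16 weeks than in any other section. Such spots still held connective tissue, as COL1A1 was seen in 22.1% and COL3A1 in 90.3% of 16-week spots. Connective tissue markers in spots without COL1A1 were at 12.7 per 10000 in fresh healthy, 28.2 in stored healthy, 63.5 in 2-week and 59.5 in 16-week muscle. The part of connective tissue in this difference of MMP2 was not tested. In the 16-week spots rich in COL1A1, MMP2 had 435 UMIs and SERPINF1 had 416, whereas in 16-week spots without COL1A1 they had 711 and 3718.

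TIMP1 was also higher in spots with COL1A1. In stored healthy muscle its level was 0.382 per 10000 in spots without COL1A1, 0.977 with 1 to 2 UMIs, 2.14 with 3 to 4 and 6.02 with 5 or more. At 2 weeks it was 0.222 without and 1.25 with 5 or more COL1A1 UMIs, and at 16 weeks 0.619 without and 2.85 with 3 to 4. With at least 3 COL1A1 UMIs it was 9.86-fold higher in stored healthy, 4.47-fold at 2 weeks and 5.54-fold at 16 weeks. The ratio of MMP2 to TIMP1 in these rich spots was 0.675 in stored healthy muscle (0.557 to 0.817), 2.06 at 2 weeks (1.68 to 2.54) and 8.06 at 16 weeks (6.06 to 10.9). Spots rich in COL1A1 thus held more TIMP1 than MMP2 molecules in stored healthy muscle and more MMP2 than TIMP1 in both tenotomy sections, and the 3 intervals did not overlap. The fresh healthy section had too few rich spots. With at least 1 COL1A1 UMI the ratio was 5.10 in fresh healthy (2.56 to 11.3), 0.790 in stored healthy, 2.17 in 2-week and 5.91 in 16-week muscle. The order in stored healthy muscle was thus not shared by the fresh healthy section. The 100 rich stored healthy spots had 274 TIMP1 and 185 MMP2 UMIs. The 24 stored healthy spots with 5 or more TIMP1 UMIs held 239 TIMP1, 136 MMP2 and 99 COL1A1 UMIs. The overlap of these groups was not examined, nor was the ratio in rich spots without those 24, so the stored healthy order may rest on them.

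Among the serpins and lysyl oxidases, SERPING1 was 7.49-fold higher in the rich spots at 16 weeks, 3.62-fold in stored healthy muscle and 2.53-fold at 2 weeks. LOXL3 was 6.01-fold, 6.11-fold and 2.58-fold higher in the same order. SERPINF1 was 2.58-fold, 3.22-fold and 1.61-fold higher, and TIMP3 4.58-fold, 2.84-fold and 1.39-fold. The 2-week log2 ratio of TIMP3 had an interval of -0.17 to 1.17, so a difference was not clear there. For each of these 4 genes the 2-week section had the smallest fold. The rich spots were 245 of 854 at 2 weeks, 66 of 1726 at 16 weeks and 100 of 2440 in stored healthy muscle. The same limit thus takes unlike parts of each section, and the folds are not like for like.

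For ADAM8 and ADAM2 the interval of the log2 ratio included 0 in more sections than for the genes just named. At 2 weeks the intervals of ADAMTS1, ADAM15 and ADAMTSL4 included 0 too. ADAM8 had 0.737 UMIs per 10000 in stored healthy spots without COL1A1 and 0.647 in rich spots (ratio 0.886, log2 interval -0.65 to 0.24), and 1.75 and 2.33 at 16 weeks (1.35, -0.11 to 0.89). At 2 weeks it had 1.04 and 2.63, or 2.53-fold more in rich spots (log2 interval 1.04 to 1.66). ADAM2 had 0.287 and 0.275 at 2 weeks and 0.759 and 0.946 at 16 weeks, and the interval of the log2 ratio included 0 in both (-0.78 to 0.67 and -0.54 to 1.07) and in stored healthy muscle (-0.04 to 1.52). These intervals leave room for a log2 difference of up to 1.52 in ADAM2.

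**Figure D4:**
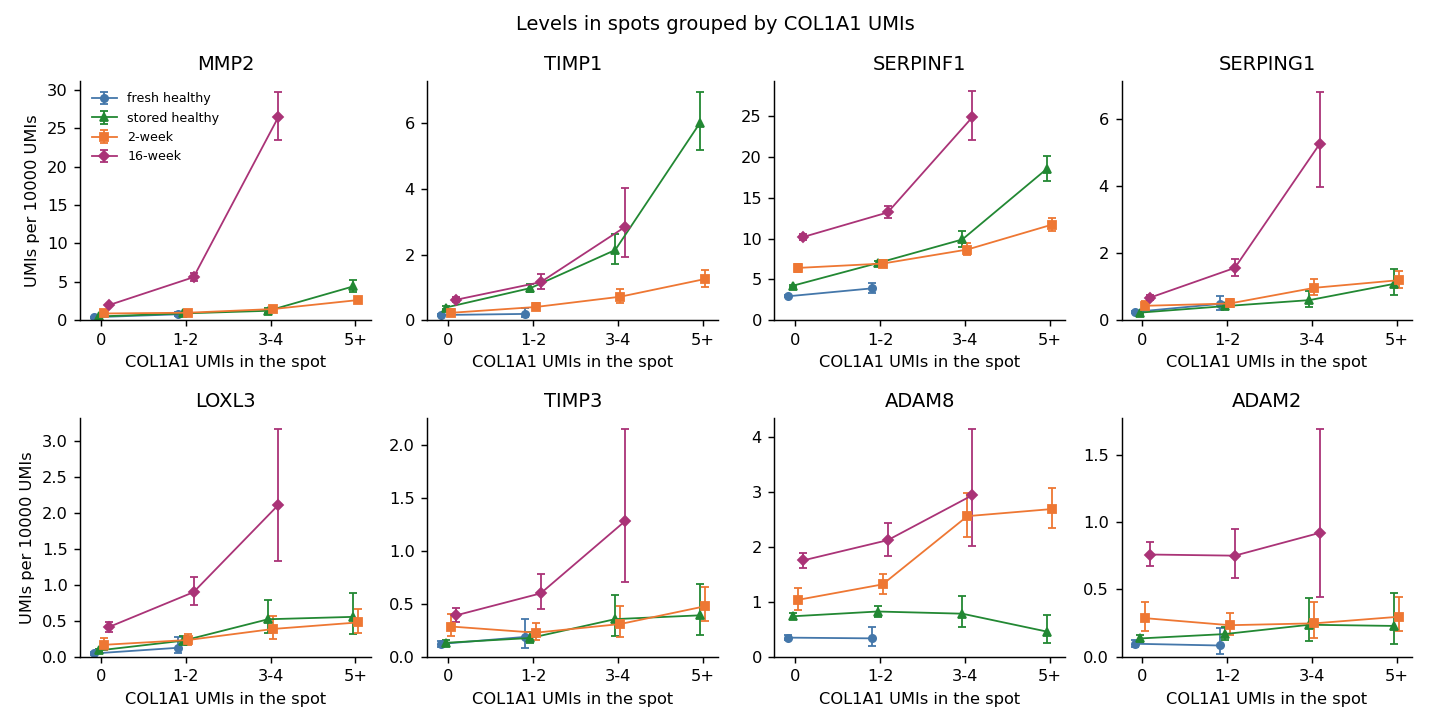
Levels of 8 genes (UMIs per 10000 UMIs of all genes) in spots grouped by their COL1A1 UMIs, 1 line per section, with exact Poisson 95% intervals; groups under 20 spots are not drawn. MMP2 reaches 26.5 at 16 weeks and TIMP1 6.02 in stored healthy muscle, while the intervals of ADAM2 overlap within each section.

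Deeper spots have more UMIs of every gene, and median depth was 5028.5 UMIs in stored healthy spots without COL1A1 and 8792 in those with 5 or more. Spots were therefore also compared after thinning to 1000 UMIs, which left out 266 fresh healthy, 93 stored healthy, 53 2-week and 352 16-week spots. At that depth, MMP2 was in 55.2% of 16-week spots with COL1A1 (47.5% to 62.8%, 95 of 172) and 20.1% of those without (17.8% to 22.4%). In stored healthy muscle the shares were 13.2% and 5.27%, and at 2 weeks 17.3% and 8.96%. TIMP1 was in 20.3% against 7.15% at 16 weeks, 13.6% against 3.58% at 2 weeks and 11.5% against 4.90% in stored healthy muscle. The intervals of the shares with and without COL1A1 did not overlap for MMP2 and TIMP1 in these 3 sections. ADAM8 was in 18.6% against 18.3% of spots at 16 weeks and in 8.24% against 7.25% in stored healthy muscle. At 2 weeks its shares of 17.3% and 11.1% had overlapping intervals.

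Spearman correlations with COL1A1 at 1000 UMIs per spot were weak for most genes. The highest were at 16 weeks over 1374 spots, 0.32 for MMP2, 0.24 for SERPINF1 and 0.23 for SERPING1, and at 2 weeks over 801 spots, 0.21 for TIMP1. In the stored healthy section none exceeded 0.13 over 2347 spots. These values depend on the depth: in the counts as deposited, where deeper spots have more of every gene, the highest was 0.43 for SERPINF1 at 2 weeks, followed by 0.36 for MMP2 at 16 weeks and 0.34 for SERPINF1 in stored healthy muscle. At 16 weeks MMP2 also had 0.48 with the connective tissue markers, 0.36 with the macrophage markers, 0.25 with the vessel wall markers and -0.32 with the skeletal muscle markers, and 0.06 with the adipose markers. ADAM8 at 16 weeks had -0.0021 with COL1A1, or 0.08 at 2000 UMIs per spot. With the adipose markers it had 0.21, with connective tissue 0.14, vessel wall 0.11, macrophage 0.04 and skeletal muscle markers -0.16. Pairs were formed only among SERPINF1, MMP2, ADAM8, TIMP1, TIMP3, SERPING1, ADAMTSL4 and LOXL3, and the highest rho were at 16 weeks. Of the 336 thinned spots with MMP2, 23.5% had SERPING1, against 6.36% of spots without MMP2 (rho 0.263). Of the 925 with SERPINF1, 28.9% had MMP2, against 15.4% of those without SERPINF1 (rho 0.259). LOXL3 was in 14.9% of spots with MMP2 against 3.47% without (rho 0.22). All these values describe spots of 1 library each.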

How the data were processed

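Visium sections of rabbit supraspinatus (1 per condition) were analysed. The deposited values are raw UMI counts per spot under tissue, which the authors made with Space Ranger 1.2.0 and the rabbit assembly OryCun2.0 and did not normalize. Strand-specific 3′ molecules were counted, not reads. All 6970 spots and all genes were kept. Sequences and coordinates were not used here, and MMP12 was not analysed here.

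Members were taken by name. Members and lists were chosen with earlier results of these data known. Named were members with at least 200 UMIs, all TIMPs and lysyl oxidases, and members past 2-fold in a comparison. MMP1, MMP13, MMP15 and MMP28 were named after their values were seen. Log2 ratios used UMIs relative to all UMIs, with 0.5 UMI added. Sums carry exact Poisson, shares exact binomial (Clopper-Pearson) and ratios exact conditional intervals at 95%, for counting error only. Spots were thinned without replacement to 1000 UMIs. Doublets were not called, as spots hold several cells. Slides print the same barcodes, so 512 of 2931 barcodes occurred in all 4 sections and do not mark shared cells. Alternatives were other scalings, minimum counts, spot filters, depths and COL1A1 limits. The spots with under 5 TIMP1 UMIs and the collagen scale were chosen after seeing the data. Calculations were done in Python 3.11.15 with pandas 2.3.3, scipy 1.17.1 and numpy 2.4.6, figures were drawn in matplotlib 3.10.9, and the scripts were tested on simulated data.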

Additional observations from a re-analysis of the deposited data

Results flagged for a closer look

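ADAMTSL4, the fibrillin-binding protein, lay on opposite sides of stored healthy muscle in the tenotomy sections: its log2 ratio was -0.49 at 2 weeks (195 against 842 UMIs) and 0.60 at 16 weeks (484 against 842 UMIs). Both ratios use the same stored healthy section and each condition has 1 section, so the difference was not tested. With the median of all genes set to 0 the values were -1.12 and -0.33, both below 0, and without mitochondrial genes they were -0.87 and 0.24.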

How the results depend on the processing

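Relative to non-mitochondrial UMIs, 2 genes of 18 were 2-fold higher at 2 weeks and 9 of 18 at 16 weeks against stored healthy muscle, beside 12.4% and 30.2% of all genes. With the median gene set to 0, these counts were 1 and 6 (6.77% and 12.5% of all genes), 2 genes were 2-fold lower at 2 weeks (6.86%), 4 were higher at 16 than at 2 weeks (9.81%), and 1 was lower in stored than in fresh muscle (8.72%). A minimum of 100 UMIs, which tests fewer genes, gave of 11 genes 2 higher at 2 weeks (21.1% of all genes), 9 at 16 weeks (41.2%), 4 at 16 against 2 weeks (14.5%) with 0 lower (4.59%), and 4 higher (7.29%) and 0 lower (7.37%) in stored against fresh muscle. Without the spot with most UMIs of each gene, 1 of 19 was lower in stored than in fresh muscle (10.7%). The cause of these shifts, beyond the change of scale or of genes tested, was not tested.

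For spots with COL1A1, limits of 3 and 5 UMIs both gave 11 of 14 genes in stored healthy muscle (31.4% and 44.1% of all genes) and 5 of 11 at 2 weeks (13.6% and 17.5%). At 2 weeks, thinning gave 5 of 10 (11.3%) and a minimum of 10 UMIs gave 3 of 18 (11.5%). Limits of 3 and 5 in fresh muscle and of 5 at 16 weeks left under 20 spots and gave no value. All 74 log2 ratios of single genes moved by less than their interval when spots under 500 UMIs or the top spot were left out. Of the correlations with COL1A1, 7 at 2 weeks and 6 in stored healthy muscle moved by more than 0.1 in the counts as deposited, and 1 at 2 weeks after thinning to 2000 UMIs.

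No paired analysis was possible because each condition has 1 section. A section and its condition cannot be told apart, nor can animal and condition except between the stored healthy and 16-week sections, whose names carry the same animal number, and genes with few UMIs have wide intervals.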
